A study of Mus musculus with 8 samples.

Results

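The ERK feedback genes described here are Dusp4, Dusp6, Spry2, Spry4, Spred1, Etv4 and Etv5. They were taken by gene symbol from a deposited table of 14861 mouse genes, and all 7 of the 7 symbols were present, each in a single row. The rule itself uses the symbols and no measured value.

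ERK is the last kinase of a relay that runs from growth factor receptors through RAS, RAF and MEK. When ERK is active it switches on genes whose products damp the same relay, and the level of these transcripts is widely used as a readout of the pathway. Dusp4 and Dusp6 encode phosphatases that remove the activating phosphates from ERK. Spry2 and Spry4 encode Sprouty proteins, which restrain signalling from receptors to RAS and RAF, and Spred1 encodes a related protein that brings the RAS inhibitor neurofibromin to the membrane. Etv4 and Etv5 encode ETS transcription factors of the PEA3 group that carry FGF and ERK signals to target genes. In mouse pluripotent cells FGF4 acting through ERK prepares cells to leave the naive state, and a MEK inhibitor is used in culture to hold them in it.

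The table gives PRO-seq signal, a measure of engaged RNA polymerase per gene and therefore of ongoing transcription, for a clonal line of mouse induced pluripotent stem cells carrying the FUCCI2 cell-cycle reporter. Mitotic cells were held with nocodazole, a microtubule poison, at 200 ng/ml for 6 h and shaken off (release for 0 h). The early G1 and late G1 columns were taken as cells released into fresh medium for 1 h and 3 h, a match made by meaning. Asynchronous cells received no nocodazole. All 4 groups were grown on irradiated feeder cells in serum with LIF, a GSK3 inhibitor and a MEK inhibitor, so the cultures that gave all 4 groups held an inhibitor of MEK before harvest or release. No source used here says whether the release medium held the inhibitors. The labels list 2 libraries for each group and 8 in all, but the table holds 1 combined value per gene and group. No difference below therefore has a replicate check, no test was run, and the depth is unknown. Fewer cells transcribing a gene and less transcription per cell cannot be told apart in such bulk values.

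Of 10 defining genes of pluripotent cells 9 were in the table, none of them at 0 in any column. Their signals ran between 0.633 and 13.6 in mitotic cells, between 20.9 and 299 in early G1, between 13.8 and 317 in late G1, and from 15.1 up to 226 among asynchronous cells. The columns summed to 16863 (mitotic), 361203 (early G1), 326086 (late G1) and 309144 (asynchronous), so the general loss of transcription in mitosis is part of the authors' scaling. No source used here says whether the signal was divided by gene length, so levels are compared between groups for 1 gene and never between genes. A log2 ratio below is that of (signal + 0.1), which understates the change of weak genes, while shares and folds given as such carry no added constant. A gene is called higher or lower at a ratio of at least 2-fold. All 7 genes passed the minimum mean signal of 0.5.

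The start sites of 3 of these genes in the table fell exactly on a RefSeq start site with a promoter window. Their upstream sequences are shown because they hold 1 phosphatase, 1 Sprouty and 1 PEA3 gene. The 250 bases before the start site of Dusp6 (GRCm38.p6, chr10:99262981-99263230, plus strand), Spry2 (chr14:105896820-105897069, minus strand) and Etv5 (chr16:22439571-22439820, minus strand) are given 5′ to 3′ along the gene, from RefSeq, with motif matches in capitals.
Dusp6: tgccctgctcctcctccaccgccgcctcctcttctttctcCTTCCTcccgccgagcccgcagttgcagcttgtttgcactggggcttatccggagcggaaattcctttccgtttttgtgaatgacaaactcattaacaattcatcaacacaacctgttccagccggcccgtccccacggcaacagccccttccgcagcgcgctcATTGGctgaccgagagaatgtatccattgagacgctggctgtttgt
Spry2: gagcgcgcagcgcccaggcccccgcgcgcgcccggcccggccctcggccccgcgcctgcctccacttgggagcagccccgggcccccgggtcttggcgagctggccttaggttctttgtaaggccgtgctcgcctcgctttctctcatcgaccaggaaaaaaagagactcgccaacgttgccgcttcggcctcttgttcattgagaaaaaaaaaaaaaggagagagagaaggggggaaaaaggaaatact
Etv5: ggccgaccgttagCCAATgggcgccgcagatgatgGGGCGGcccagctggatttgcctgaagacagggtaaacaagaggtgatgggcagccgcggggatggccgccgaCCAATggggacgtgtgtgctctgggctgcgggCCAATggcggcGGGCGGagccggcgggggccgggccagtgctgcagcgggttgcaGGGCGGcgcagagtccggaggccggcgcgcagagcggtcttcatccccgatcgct

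Both strands of the windows were searched for short motifs. The basal promoter motifs were the CCAAT box with the letters CCAAT, the GC box written as GGGCGG and the TATA box written as TATAAA. The factor motifs were the ETS core written as CCGGAA and the PEA3 core written as AGGAAG. The CRE was searched as TGACGTCA and the AP-1 motif as TGANTCA. The octamer bound by the repressor Capicua was searched in 2 forms, of which one is TGAATGAA and the other is TGAATGGA. Other forms of this octamer were not searched. The STAT motif was searched as TTCNNNGAA, and the SRF motif was the CArG box. The ETS and PEA3 cores share the letters GGAA, and the 2 octamers differ in 1 base. The Etv5 window held 3 CCAAT boxes, the first bases of which lay at -237, -142 and -110 from the start site, and 3 GC boxes at -215, -99 and -55. The Dusp6 window held 1 CCAAT box at -46 and 1 PEA3 core at -210. The Spry2 window held no match to any of these. Among 32851 RefSeq promoter windows of the same length, 33.8% held a CCAAT box, 32.7% a GC box and 29.5% a PEA3 core, so these matches are common ones. The other motifs, in the letters searched, were absent from all 3 windows, which leaves other forms of the octamer undescribed. They occurred in 12.4% (TATA box), 12.0% (ETS core), 1.55% (CRE), 6.75% (AP-1), 1.08% and 1.01% (the octamers), 7.02% (STAT) and 1.47% (SRF) of all windows. A match is a description of letters only. The windows were 56.4% (Dusp6), 62.4% (Spry2) and 71.2% (Etv5) G or C, against a median of 52.4% over all windows. For Spred1 the table's start site lies 303 bp downstream of the RefSeq one. The windows for Dusp4, Spry4 and Etv4 were not matched.

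In mitosis all 7 genes were transcribed at a small share of their asynchronous level, close to what the genome as a whole kept. The median ERK feedback gene retained 6.45% of its asynchronous signal, with a range of 3.81% to 13.3%, and the median of 14397 genes without a value of 0 retained 5.36%. All 7 were called lower than in asynchronous cells, as were 99.1% of 14444 genes, while 0.0208% were called higher. The median log2 ratio was -3.91 over these genes and -3.89 over all genes. The list as a whole therefore lay at the level of the genome, and its members spread to both sides.

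The phosphatase genes stood at opposite ends. Dusp4 (chromosome 8, start site at 34807297) had a signal of 0.839 in mitotic cells, 4.80 in early and 8.19 in late G1 cells, against 6.29 in asynchronous cells. Dusp6 (chromosome 10, start site at 99263231) had 0.453 in mitotic cells, 18.8 in early and 16.4 in late G1 cells, against 11.9 in asynchronous cells. Dusp4 thus kept 13.3% of its asynchronous signal in mitosis and Dusp6 3.81%. The mitotic to asynchronous ratio of Dusp4 exceeded that of 90.0% of genes, while that of Dusp6 exceeded 18.9%. DUSP6 is a cytoplasmic phosphatase with a strong preference for ERK, and DUSP4 is a nuclear one that can also act on other MAP kinases.

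Among the Sprouty and Spred genes the mitotic shares ran from 4.15% to 7.29%, on both sides of the 5.36% of the median gene. Spry2 (chromosome 14, start site at 105896819) had 2.69 in mitotic cells, 92.4 in early and 93.8 in late G1 cells, against 41.7 in asynchronous cells, and so kept 6.45%. Spry4 (chromosome 18, start site at 38601268) had 0.310 in mitotic cells, 6.72 in early and 15.0 in late G1 cells, against 7.48 in asynchronous cells, and kept 4.15%. Spred1 (chromosome 2, start site at 117121374) had 0.294 in mitotic cells, 10.6 in early and 8.18 in late G1 cells, against 4.03 in asynchronous cells, and kept 7.29%. All 3 genes were lowest in mitosis, and only Spry4 was lower in early G1 than in asynchronous cells.

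The PEA3 factors differed in the same way as the phosphatases. Etv4 (chromosome 11, start site at 101784491) had 1.07 in mitotic cells, 10.8 in early and 14.1 in late G1 cells, against 10.4 in asynchronous cells. Etv5 (chromosome 16, start site at 22439570) had 1.25 in mitotic cells, 29.3 in early and 18.1 in late G1 cells, against 26.8 in asynchronous cells. Etv4 kept 10.3% of its asynchronous signal in mitosis and Etv5 4.66%. With the columns rescaled to equal medians, which removes the general fall, Dusp4 and Etv4 stood above their asynchronous level in mitosis (log2 ratios of 1.35 and 0.98), while Dusp6 and Etv5 did not change direction.

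**Figure D1:**
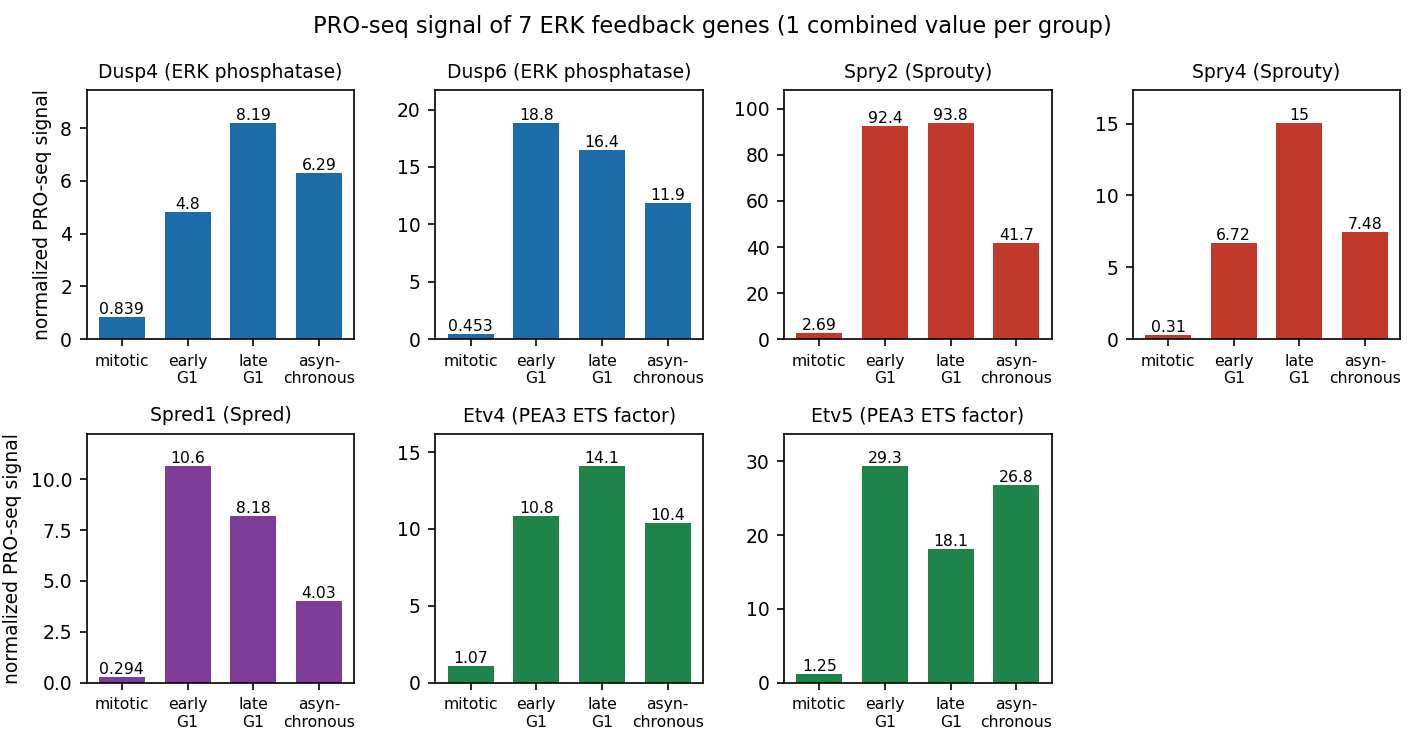
Normalized PRO-seq signal (vertical axis, from 0, with its own scale for each gene) of the 7 ERK feedback genes in mitotic, early G1, late G1 and asynchronous cells; each bar is 1 combined value, with no error. Dusp4, Spry2, Spry4 and Etv4 were highest in late G1, and Dusp6, Spred1 and Etv5 in early G1.

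Within the 1 h release all 7 genes were called higher than in mitosis, as were 99.3% of 14456 genes; 0.00692% were called lower. The median log2 ratio was 4.45 over the ERK feedback genes and 4.21 over all genes. Dusp6 rose most among them, 41.5-fold, followed by Spred1 (36.1-fold), Spry2 (34.4-fold), Etv5 (23.5-fold) and Spry4 (21.6-fold). Etv4 rose 10.1-fold and Dusp4 5.73-fold. Relative to the median gene, Dusp6 lay 0.89 above and Spry2 0.84 above on the log2 scale, while Etv4 lay at -0.98 and Dusp4 at -1.83. Only 5.87% of genes had a smaller ratio of early G1 to mitosis than Dusp4. The mitotic value enters this ratio and the mitotic share alike, so a gene with a high share tends to have a small rise.

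By 3 h all 7 genes were again called higher than in mitosis, as were 99.7% of 14467 genes, with 0% called lower. Spry4 showed the largest ratio of late G1 to mitosis among them (48.5-fold) and Dusp4 the smallest (9.77-fold). The median log2 ratio was 4.39 for the ERK feedback genes and 4.11 for all genes.

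Between early and late G1 the ERK feedback genes were spread much as all genes were, from percentile 18.2 (Etv5) to percentile 87.6 (Spry4). Only Spry4 was called higher in late than in early G1 (15.0 and 6.72, 2.24-fold), a share of 14.3% of the 7 genes against 15.1% of 14699 genes, and none was called lower, against 7.52%. The median log2 ratio was 0.02, and that of all genes -0.08. Below the 2-fold line, the signal in late G1 was 1.71-fold that in early G1 for Dusp4, 1.30-fold for Etv4 and 1.02-fold for Spry2. It was 0.873-fold for Dusp6, 0.771-fold for Spred1 and 0.617-fold for Etv5. These 6 differences are within 2-fold and have no replicate error to be read against.

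The members of each related pair differed by about 2-fold in this step. In any pair 1 gene must lie later than its partner, so only the size of the difference could add to this. The quartiles of this log2 ratio over all genes were -0.56 and 0.58, so unrelated genes can differ by as much. The log2 ratio of late to early G1 was 0.95 higher for Dusp4 than for Dusp6, 1.13 higher for Spry4 than for Spry2 and 1.07 higher for Etv4 than for Etv5, which are 1.94-, 2.19- and 2.10-fold. Dusp4, Spry4 and Etv4 also had the smaller ratio of early G1 to mitosis in each pair, with differences of -2.71, -0.997 and -1.22. Both ratios use the early G1 column, so a low value in that column alone would give both. Over the pseudocounts, minimum signals, scalings and treatments of 0 that were tried, the late to early difference ran from 0.63 to 0.96 for the phosphatases, from 1.00 to 1.14 for the Sprouty genes and from 0.98 to 1.07 for the PEA3 factors. The early G1 to mitotic difference ran from -2.83 to -2.36 for the phosphatases, from -1.71 to -0.66 for the Sprouty genes and from -1.24 to -1.13 for the PEA3 factors. This pattern was noticed in the values and is given as a description of 3 pairs.

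**Figure D2:**
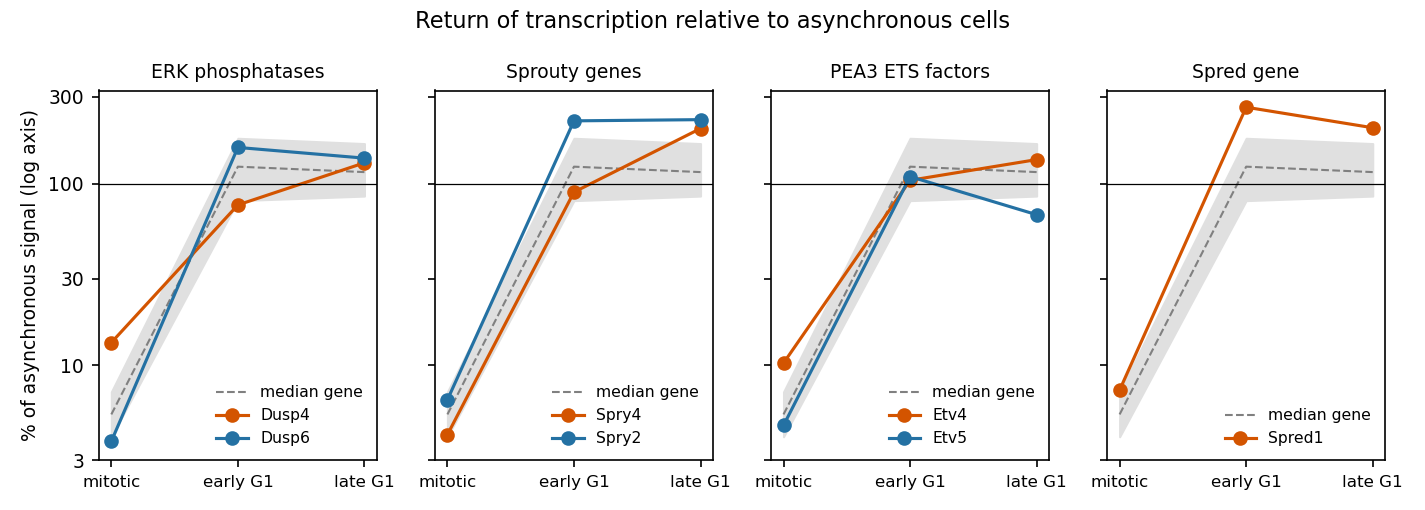
Share of the asynchronous signal (percent, log axis) in mitotic, early G1 and late G1 cells for each pair of related genes and for Spred1; points are single combined values, the dashed line is the median of 14397 genes, the grey band runs from their lower to their upper quartile and the horizontal line marks 100%. Dusp4 (76.3%) and Spry4 (89.8%) were below 100% in early G1 and above it in late G1, while Etv5 was above it in early G1 (109%) and below it in late G1 (67.4%).

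Set against asynchronous cells, 2 of the 7 genes were called higher in early G1 and none lower, where 17.7% of 14661 genes were called higher and 9.53% lower. These were Spred1 (10.6 in early G1 against 4.03 in asynchronous cells, 2.63-fold) and Spry2 (92.4 and 41.7, 2.22-fold), both inhibitors of RAS signalling. Dusp6 stood at 158% of its asynchronous signal, Etv5 at 109%, Etv4 at 104%, Spry4 at 89.8% and Dusp4 at 76.3%. The median gene of the whole table stood at 124%. Relative to that general excess the ERK feedback genes had a median log2 ratio of 0.13 against 0.30 for all genes. With equal medians Spry2 was no longer called higher (log2 ratio 0.82), and Etv4 and Etv5 changed direction (-0.26 and -0.19).

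In late G1 Spry2 (93.8 in late G1 against 41.7 in asynchronous cells, 2.25-fold) and Spred1 (8.18 and 4.03, 2.03-fold) were again called higher than in asynchronous cells. Over 14695 genes, 16.9% were called higher and 5.14% lower. With equal medians neither Spry2 (log2 ratio 0.96) nor Spred1 (0.80) was called. Spry4 came next (15.0 and 7.48), with a plain ratio of 2.01-fold that fell just under the line once the constant was added (log2 ratio 0.998). The calls of Spred1 and Spry4 therefore rest on differences too small to separate them. Dusp6 stood at 138% of its asynchronous signal, Etv4 at 136% and Dusp4 at 130%. Etv5 alone was below the asynchronous level (18.1 in late G1 against 26.8 in asynchronous cells, 67.4%), and only 12.9% of genes had a smaller ratio. The median log2 ratio was 0.46 for these genes and 0.21 for all genes. The comparisons with asynchronous cells share that column, so a low asynchronous value of Spry2 or Spred1 would raise both.

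**Figure D3:**
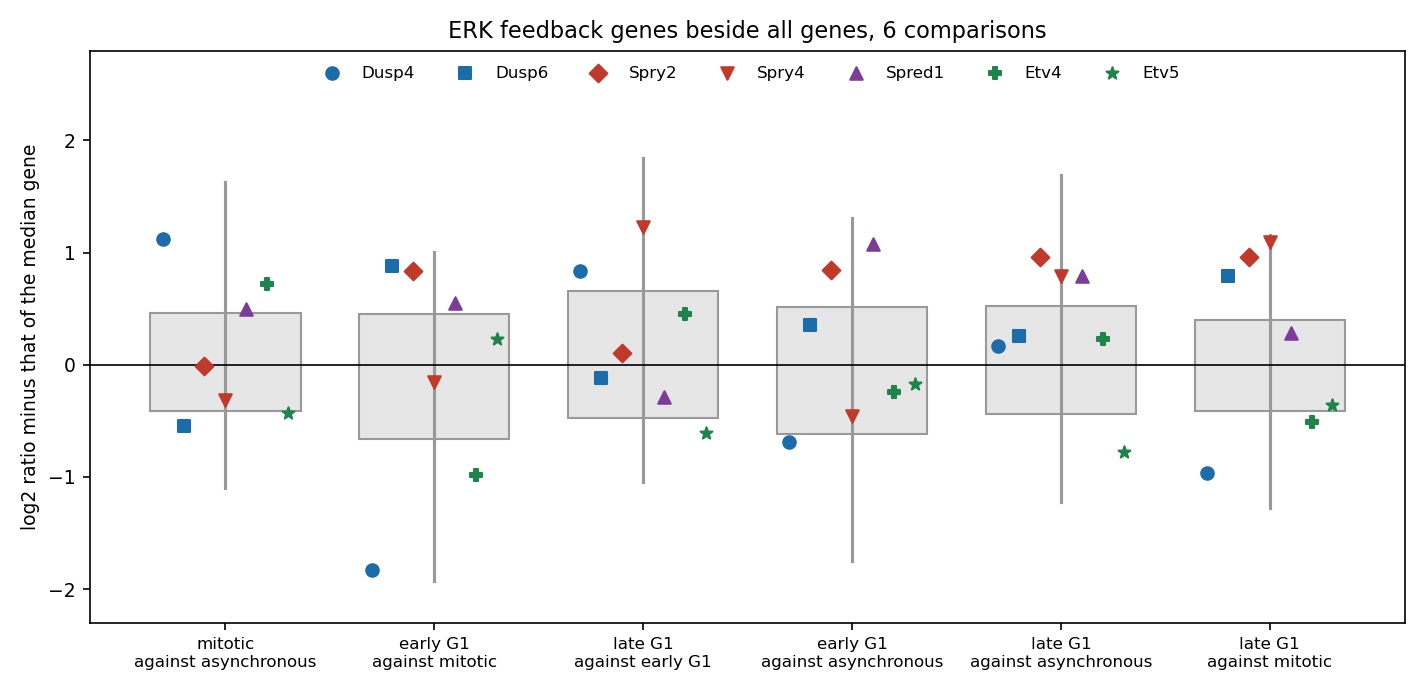
Log2 ratio of each ERK feedback gene minus that of the median gene (vertical axis) in 6 comparisons; the grey box runs from the lower to the upper quartile of all genes and the line runs from percentile 5 to percentile 95. Dusp4 lay 1.12 above the median gene in mitotic against asynchronous cells and at -1.83 in early G1 against mitotic cells, whereas Spry2 was at -0.01 in the first and 0.84 in the second.

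The authors' deposited table also assigns each gene to a temporal class, made by a rule that no source used here gives. It places Dusp6, Spry2 and Spred1 in Early_Spike, Dusp4, Spry4 and Etv4 in Transient, and Etv5 in Early_Plateau, with 0 in Gradual. In the authors' deposited table Early_Spike holds 33.6% of all genes, Early_Plateau 26.3%, Transient 24.7% and Gradual 15.4%. The classes come from the same columns and are no separate evidence for the split of the pairs.

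By a likeness measured over the 4 columns (the distance between log2 profiles after each gene's own mean was removed), the genes near to the median profile of the 7 included Gar1 (distance 0.075), Kat2b (0.081), Rbm12 (0.082) and Fam216a (0.087). Gar1, for example, had 1.76 in mitotic cells, 41.5 in early and 39.1 in late G1 cells, against 27.3 in asynchronous cells. The ERK feedback genes were themselves no tight group. Their distances to their own median profile ran from 0.52 (Dusp6) to 1.48 (Dusp4) with a median of 0.80. The median over 7081 other genes of at least median signal was 0.72. The members were held to no such limit, so the 2 medians are not strictly alike. Of these other genes 1902 were nearer than the nearest member, Dusp6, and 6444 were nearer than Dusp4.

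The nearest listed neighbours of the members did not share one pattern between early and late G1. The distance to the next listed start site ran from 51462 bp (Etv4 to Dhx8) to 209379 bp (Spry2 to Trim52). Dhx8 had 12.2 in late G1 and 29.5 in early G1, and Trim52 had 26.2 and 12.7. Tnks, the nearest listed gene to Dusp4, had 11.3 in late G1 and 19.8 in early G1. RefSeq spans ran from 4259 bp (Dusp6) and 4873 bp (Spry2) to 58258 bp (Etv5) and 61209 bp (Spred1). Of the 7 spans only that of Dusp6 overlaps another RefSeq gene, Gm34921, and since no source used here says whether strand was used, its signal and that of Gm34921 cannot be told apart.

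Upstream of ERK the ligand genes varied widely. Of 11 FGF ligand genes 8 were in the table. Fgf4, the main FGF ligand of mouse pluripotent cells, had 3.98 in mitotic cells, 185 in early and 171 in late G1 cells, against 181 in asynchronous cells. It kept 2.20% of its asynchronous signal in mitosis and returned to its asynchronous level by early G1. Between early and late G1, 3 ligand genes (37.5%) were called higher and 2 (25%) lower, against 15.1% and 7.52% of all genes. Fgf3 had 27.5 in late G1 and 3.94 in early G1, Fgf9 3.36 and 0.865, and Fgf15 4.17 and 1.25. Fgf8 had 0.481 in late G1 and 3.76 in early G1, and Fgf18, the other lower gene, 10.3 and 23.6. The signals of Fgf8, Fgf9 and Fgf15 are weak in at least 1 of these columns.

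Of 12 FGF receptor and adaptor genes, 1 (8.33%) was called higher and 0 lower in late against early G1. The shares of all genes were 15.1% and 7.52%. This was the receptor gene Fgfr4 (29.0 in late G1 and 8.71 in early G1). Fgfr1, the FGF receptor gene best known from pluripotent cells, had 1.09 in mitotic cells, 37.0 in early and 39.0 in late G1 cells, against 18.7 in asynchronous cells. In early G1 against asynchronous cells 0 of the 12 were called in either direction, where 17.7% of all genes were higher and 9.53% lower. Fgfr1 (1.98-fold) and the adaptor gene Frs2 (1.99-fold) were just under the line.

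Several genes of the kinase relay were called higher in early G1. Of 18 genes for RAS, RAF, MEK, ERK and their partners, 8 (44.4%) were called higher in early G1 than in asynchronous cells, against 17.7% of all genes, and 0 were called lower. Their median log2 ratio was 0.83, that of all genes 0.30 and that of the ERK feedback genes 0.13. The other 10 were within 2-fold, and among these the ERK1 gene Mapk3 had 4.85 in early G1 against 9.43 in asynchronous cells. Shoc2, whose product helps to activate RAF, had 12.1 in early G1 against 4.94 in asynchronous cells, and Lamtor3, a scaffold gene of MEK and ERK, 26.1 and 10.2. Late against early G1 gave 3 lower genes (16.7%) and 1 higher one (5.56%), against 7.52% and 15.1% of all genes, with a median of -0.77. Lamtor3 had 8.11 in late G1 and 26.1 in early G1, Shoc2 5.06 and 12.1, Nras 26.9 and 54.4, and the scaffold gene Ksr1, called higher, 12.4 and 5.87. In late G1 against asynchronous cells 0 of 18 were called, where 16.9% of all genes were higher and 5.14% lower.

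Close relatives of the feedback genes were also spread. Of 13 other Sprouty, Spred and RAS inhibitor genes in the table, 5 (38.5%) were called higher in early G1 than in asynchronous cells and 0 lower. The shares of all genes were 17.7% and 9.53%. Spred3 had 71.5 in early G1 against 14.2 in asynchronous cells, and 10.3 in late G1. Il17rd, which encodes the FGF antagonist SEF, had 24.2 in early G1 against 9.41 in asynchronous cells. The other 3 were Rasa1, a RAS GTPase activator gene (12.0 and 4.68), Cblb (6.40 and 2.82) and Lztr1 (23.3 and 10.9). Spred3 was also the one gene of this list called lower in late than in early G1. Spred2 had 0.976 in mitotic cells, 24.8 in early and 23.9 in late G1 cells, against 15.3 in asynchronous cells, and Spry1 0.814, 21.6, 19.3 and 21.4 in the same order. Errfi1, which encodes an inhibitor of the EGF receptor, was the one gene of this list called higher in late than in early G1 (36.1 and 16.4). In that step 15.1% of all genes were called higher and 7.52% lower.

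Among 9 other DUSP genes, 4 (44.4%) were called higher and 2 (22.2%) lower in early G1 than in asynchronous cells, against 17.7% and 9.53% of all genes. The share higher was thus that of the relay genes. In late G1 4 (44.4%) were called higher and 0 lower, against 16.9% and 5.14%. The genes higher in early G1 were Dusp2, Dusp8, Dusp10 and Dusp14, and the lower ones were Dusp7 (8.45 in early G1 against 18.0 in asynchronous cells) and Dusp9. In late G1 the higher ones were Dusp2, Dusp5, Dusp8 and Dusp14. Dusp2 had 13.1 in late G1 against 1.84 in asynchronous cells, Dusp5, a nuclear ERK phosphatase gene, 14.8 and 6.74, and Dusp14 33.5 and 15.7. Dusp9, an ERK phosphatase gene, had 5.31 in early and 10.2 in late G1 cells, against 11.2 in asynchronous cells. Between early and late G1 0 of the 9 were called, where 15.1% of all genes were higher in late G1 and 7.52% lower.

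**Figure D4:**
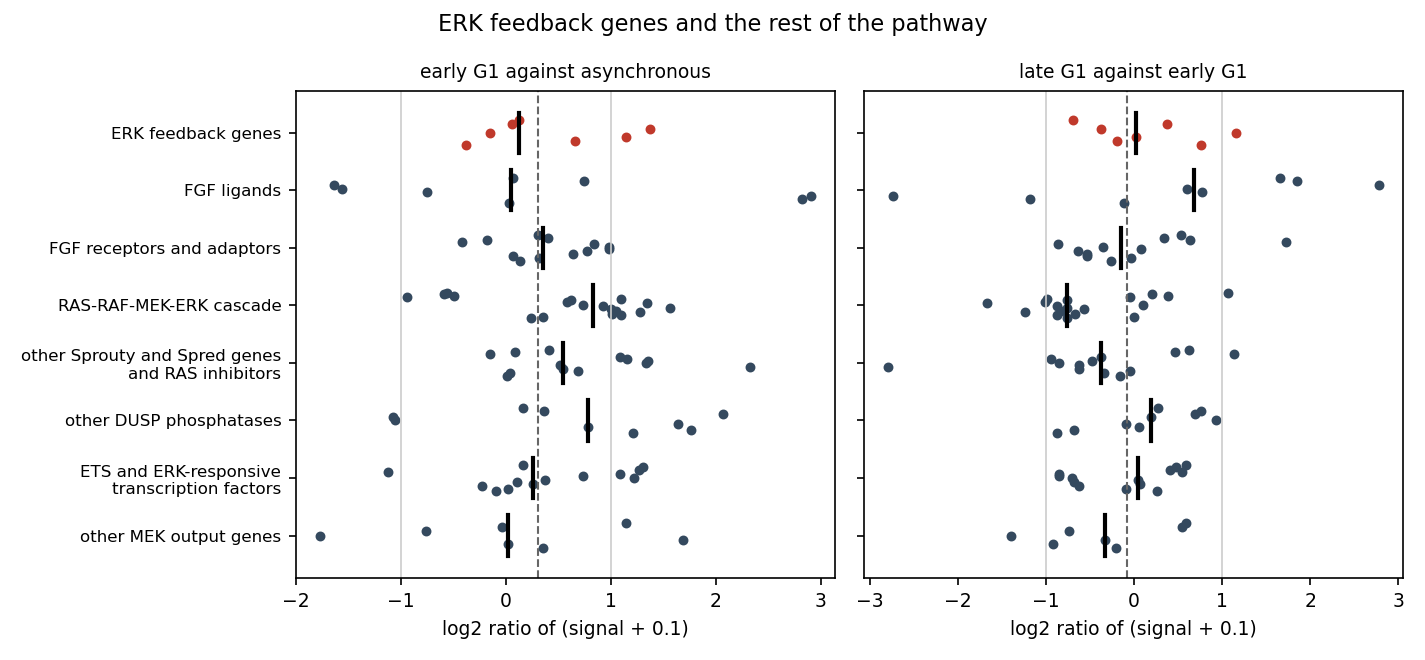
Log2 ratio of (signal + 0.1) for each gene (points) of the ERK feedback genes and 7 lists of pathway genes, in early G1 against asynchronous cells and in late against early G1; black ticks are list medians, the dashed line is the median of all genes and the grey lines mark 2-fold. In early G1 against asynchronous cells the median of the relay genes was 0.83 and that of the ERK feedback genes 0.13.

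Genes on a list of other MEK outputs varied too, and their dependence on MEK in these cells was not tested. Of 7 such genes, 2 (28.6%) were called higher in late G1 than in asynchronous cells and 2 (28.6%) lower, against 16.9% and 5.14% of all genes. Phlda1 had 118 in late G1 against 35.5 in asynchronous cells, and the ephrin receptor gene Epha4 38.9 and 15.1. Ier3, an immediate early gene, had 7.34 in late G1 against 66.5 in asynchronous cells, and Ccnd1, the cyclin D1 gene, 18.4 and 52.5. Egr1, an immediate early transcription factor gene, had 2.43 in mitotic cells, 16.2 in early and 8.52 in late G1 cells, against 16.0 in asynchronous cells. The median log2 ratio of these 7 genes in late G1 against asynchronous cells was 0.15, beside 0.46 for the ERK feedback genes.

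Of 13 ETS and ERK-responsive transcription factor genes, 4 (30.8%) were called higher and 1 (7.69%) lower in early G1 than in asynchronous cells. The shares of all genes were 17.7% and 9.53%. Elk1, an ERK-activated ETS factor gene, had 10.7 in early G1 against 4.54 in asynchronous cells, and Fos 26.4 and 10.9. Ets1 (1.28 and 0.458) and Etv1 were also higher, and Ets2 (5.97 and 13.1) was the lower one. Etv1, the third gene of the PEA3 group, had 0.188 in mitotic cells, 7.38 in early and 4.05 in late G1 cells, against 3.41 in asynchronous cells. Its order of early over late G1 was that of Etv5 and not of Etv4. Cic, which encodes the repressor Capicua, had 3.11 in mitotic cells, 74.2 in early and 111 in late G1 cells, against 66.4 in asynchronous cells.

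Some markers of the fibroblast feeders were called higher in late than in early G1, most of them weak. Of 20 markers 11 were in the table, and 6 of the 11 were called higher in late than in early G1 and 0 lower. The median log2 ratio was 1.02, and 15.1% of all genes were called higher. Of the 6, Col1a1 (1.97), Snai2 (1.02), Pdgfra (2.48), Pdgfrb (1.78) and Thy1 (1.18) were weak in early G1, and Loxl1 had 11.6. The signals of all 11 markers summed to 4.61 (mitotic), 138 (early G1), 134 (late G1) and 89.7 (asynchronous), or 0.0273%, 0.0382%, 0.0410% and 0.0290% of the column totals in the same order. Fn1 had the highest signal in late and early G1 and made up a large part of both sums. It went the other way from the 6 called genes, below the 2-fold line (61.3 in late G1 and 106 in early G1). Twist1 and S100a4 were listed at 0 in mitotic cells. The part of feeder cells in the values of these genes was not tested.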

How the data were processed

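PRO-seq values were used for 4 groups of mouse induced pluripotent stem cells. Per the file headers, the authors deposited a normalized signal for each gene, in which the libraries of a group are already combined. The deposited table adds a text column of another unit, the temporal class. The submitters' processing notes name GRCm38/mm10 and the tools Bowtie2, cutadapt, SAMtools and Picard, without versions. No source used here gives the assignment of reads to genes, strand use or scaling.

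Log2 ratios of (signal + 0.1) were computed over all genes with a mean signal of at least 0.5 (14814 of 14861), leaving out a gene from a comparison where either column listed it at 0, and genes were called at 2-fold. With 1 value per group no test was made. The step was tested on simulated data with fixed fold changes and no noise, which checks the arithmetic only. Alternatives were pseudocounts of 0.02 and 0.5, no minimum and a minimum of 2.5, equal medians, quantile normalization, a 1.5-fold call, and genes listed at 0 kept; ranges for the paralogue pairs were added after seeing the data.

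The members and gene lists were chosen with earlier results of these data known. Named genes were all members, up to 4 of each list with the largest ratios in a comparison, fixed close relatives (Spry1, Spred2, Spred3, Dusp5, Dusp9, Etv1, Fgf4, Fgfr1, Egr1, Phlda1, Ccnd1) and the 5 nearest profiles; of the genes this rule gives, 2 are not reported here. Cic in all columns, Mapk3, genes that complete a small count and the neighbours were added after their values were seen. Promoters are RefSeq windows on GRCm38.p6, cut to the 250 bases before the start. Analyses used Python 3.11.15, pandas 2.3.3 and numpy 2.4.6.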

Additional observations from a re-analysis of the deposited data

How the results depend on the processing

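No paired analysis was possible because the table holds 1 combined column per group, and for the same reason leaving out each library was not run. The counts of called ERK feedback genes kept their values, or stayed within 1.5 times of them, with a pseudocount of 0.02, no minimum, a minimum of 2.5 and genes listed at 0 kept. With a pseudocount of 0.02, 3 genes in place of 2 were called higher in late G1 than in asynchronous cells, as Spry4 crossed the line (log2 ratio 1.006). With a pseudocount of 0.5, 1 gene in place of 2 was called higher in that comparison. Of all genes, 17.4% were called higher there with a pseudocount of 0.02 and 14.9% with 0.5. With a 1.5-fold call, 2 genes were higher and 1 lower in late against early G1, where 24.8% of all genes were higher and 23.5% lower.

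Scaling decides the comparisons with mitosis. With equal medians, and equally with quantile normalization, mitotic against asynchronous cells gave 1 higher and 0 lower gene in place of 0 and 7, early G1 against mitotic cells 0 higher and 2 lower in place of 7 and 0, and late G1 against mitotic cells 1 higher and 1 lower in place of 7 and 0. The count higher in early G1 than in asynchronous cells became 1 under both, and in late G1 0 with equal medians and 1 with quantile normalization. The following log2 ratios changed sign under both, given with equal medians and then quantile normalization. In mitotic against asynchronous cells they were Dusp4 (1.35 and 1.34), Spry2 (0.31 and 0.16), Spred1 (0.48 and 0.52) and Etv4 (0.98 and 0.94). In early G1 against mitotic cells they were Dusp4 (-2.05 and -1.86), Spry4 (-0.15 and -0.056), Etv4 (-1.24 and -1.19) and Etv5 (-0.041 and -0.059). In late G1 against mitotic cells they were Dusp4 (-1.18 and -1.21), Etv4 (-0.75 and -0.68) and Etv5 (-0.62 and -0.52). In early G1 against asynchronous cells they were Etv4 (-0.26 and -0.25) and Etv5 (-0.19 and -0.27), neither of them called as reported. Dusp6 in late against early G1 changed sign with quantile normalization alone (0.016). These settings remove the general difference between columns by construction. The depth behind the small mitotic values is unknown.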
